A study of Mus musculus with 25 samples.

Results

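Bile acid transport and sensing in the mouse colon was followed through 8 genes. They were the apical uptake transporter Slc10a2, the cytosolic binding protein Fabp6, the basolateral exporter subunits Slc51a and Slc51b, the basolateral efflux pump Abcc3, the nuclear receptor Nr1h4 (FXR), the hormone gene Fgf15 and the membrane receptor Gpbar1 (TGR5). Genes were taken by their name in the array files, with the older names Osta and Ostb accepted for the exporter subunits, and not by any measured value. All 8 had a probe, and 7 of the 8 passed the filter on dim signal, among 25464 genes or unnamed probes tested in all. Fgf15 was the exception, with a probe well above background on 0 of the 25 arrays.

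Bile acids are made in the liver from cholesterol, reach the gut with bile, and are largely recovered in the ileum. There Slc10a2 takes conjugated bile acids in from the lumen, Fabp6 binds them inside the enterocyte, and the Slc51a-Slc51b dimer passes them on to the portal blood. Bile acids that bind Nr1h4 induce Slc51a, Slc51b, Fabp6 and Fgf15, and the secreted FGF15 represses bile acid synthesis in the liver. The colon receives what the ileum leaves, mostly deconjugated by bacteria, and expresses its own set of exporters and receptors, among them Gpbar1 on several epithelial, endocrine and immune cells.

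Whole colon came from female C57BL/6J mice aged 8 weeks, either wild type (WT) or Card9-/-. CARD9 is an adaptor protein of C-type lectin receptor signalling, and Card9-/- is the only allele the labels name. All mice but those of day 0 drank 2% (w/v) dextran sulphate sodium (DSS), which damages the lining of the colon, for 7 days, and the day 12 mice then had 5 days of plain water. There were 3 arrays each for WT day 0 and Card9-/- day 0, 5 for WT day 7, 4 for Card9-/- day 7 and 5 each for WT day 12 and Card9-/- day 12, with 1 mouse per array. The design text gives 5 mice for Card9-/- day 7, and the other mouse is not analysed here. Whole tissue was hybridised, so fewer cells of a type and less RNA per cell cannot be told apart in any value below.

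The probe for Card9 itself went against the labels. Its log2 signal lay between -1.52 and -0.48 on the 12 arrays labelled Card9-/-, with all 12 well above background, and between -6.84 and -2.93 on the 13 WT arrays, with 2 well above background. Every direction between genotypes therefore rests on the labels as given. The 75th percentile of signal, to which each array was scaled, ranged from 196 to 661, and between 46.5% and 67.1% of probes were well above background per array. Every one of the 14 listed colon epithelium genes was measured, and their mean, centred per gene, lay between -0.38 and 0.20 on all arrays. The mean of 8 neutrophil genes, centred in the same way, was -3.62 to -2.44 in the day 0 groups and 2.12 to 2.74 at day 7 in the arrays labelled Card9-/-. The centred mean of 11 pancreatic acinar genes reached 12.00 in a Card9-/- day 7 array, and 4 arrays had 5.00 or more: Card9-/- day 7 replicates 2 and 3, Card9-/- day 12 replicate 1 and WT day 12 replicate 5.

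The sequences below are the 60-base array probes of the transporters and the binding protein, shown because every value that follows is the brightness of such a spot. They are given 5′ to 3′ in the sense of the messenger RNA, with the mm9 position from the array files, and all lie on the minus strand. The Slc10a2 probe maps to chr8:5086145-5086204, the Fabp6 probe to chr11:43410973-43411032, the Slc51b probe to chr9:65260705-65260764 and the weaker of both Slc51a probes to chr16:32475871-32475930. The brighter Slc51a probe, used in the fit, lies in the same gene at chr16:32475636-32475695.
Slc10a2: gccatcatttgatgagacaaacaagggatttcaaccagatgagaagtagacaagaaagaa
Fabp6: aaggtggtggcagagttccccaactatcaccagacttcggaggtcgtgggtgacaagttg
Slc51a: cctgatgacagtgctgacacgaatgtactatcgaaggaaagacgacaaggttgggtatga
Slc51b: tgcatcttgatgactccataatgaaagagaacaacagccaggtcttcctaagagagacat

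The other probes lay at chr11:94204612-94204671 (minus strand) for Abcc3, chr10:88917222-88917281 (minus strand) for Nr1h4, chr7:152086371-152086430 (plus strand) for Fgf15 and chr1:74326104-74326163 (plus strand) for Gpbar1. The files give each as a transcript probe without naming an exon. No member was saturated or flagged on any array.

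Before any comparison of groups, 3 arrays have to be set apart: Card9-/- day 0 replicates 1 and 2 and WT day 7 replicate 1. On them Hoxd4, a Hox gene of the anterior trunk and gut, stood at 0.34 to 1.22 (log2 signal minus the 75th percentile of its array, the scale of all levels below), against -5.29 to -1.60 on the other 22 arrays. Hoxd8 stood at -2.02 to -0.86 against -6.30 to -2.64. Hoxa13, a Hox gene of the hindgut end, was lower there, at -0.53 to 0.77 against 0.90 to 2.18. Hoxb13, which marks the distal colon, was 1.52 and 3.24 on the Card9-/- day 0 arrays, below its range of 4.66 to 7.53 on the 22 arrays, but 5.56 on WT day 7 replicate 1. Hoxd13 parted them too: it was -7.38 and -7.04 on the Card9-/- day 0 arrays and 1.00 on WT day 7 replicate 1, the highest of all arrays.

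Part of a list of small intestine enterocyte genes was also raised on these 3 arrays. The mean of the 12 measured genes of that list, centred per gene, was 1.27 to 2.22 on them against -0.97 to 0.46 on the others. Of the 12, 4 were above all 22 other arrays on each of the 3, beside 1.83% of all genes. Sucrase-isomaltase (Sis), a brush border disaccharidase, was -0.71 to 1.64 against -6.30 to -1.39. Its probe was well above background on all 3 and on 6 of the 22. The absorptive colonocyte list was not raised as a whole, with a centred mean of -0.77 to -0.16 over 11 measured genes against -0.70 to 0.70. Within it the carbonic anhydrase Car1 was higher on the 3 arrays, at 8.53 to 8.74 against 5.29 to 7.09, while the water channel Aqp4 was 2.06 to 4.95 against 4.73 to 6.11. Fgf15, an ileal gene, was not well above background on any of the 3, and the lactase gene Lct failed the filter. A list of 8 smooth muscle genes was high on the 3 arrays as well, with a centred mean of 0.76 to 1.29 against -1.25 to 0.77.

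A position score per array, the mean of the anterior Hox genes minus that of the posterior ones, was 2.95 and 2.87 on the Card9-/- day 0 arrays and 2.60 on WT day 12 replicate 4, and at most 0.55 on all other arrays. It was -0.38 on WT day 7 replicate 1, which had the highest level of all arrays in the anterior genes Hoxd4 and Hoxd8 and in the posterior gene Hoxd13, and the lowest in Hoxa13. The score thus leaves that array among the rest, and the mean of Hoxd4 and Hoxd8 was added after the values were seen. That mean was -0.84 to 0.18 on the 3 arrays. Many of these Hox genes were dim. Hoxc5 was well above background on 3 of the 25 arrays, Hoxd10, Hoxd11 and Hoxd12 on 4 each, and Hoxc6 on 7. Hoxd8 was so on 9, Hoxd4 on 16, Hoxd13 on 19, Hoxc4 on 22, and Hoxa13 and Hoxb13 on 25. The score and the mean of Hoxd4 and Hoxd8 thus rest partly on values not well above background. The labels give no colon segment, and what sets the 3 arrays apart was not tested. Member calls that involve them are given with and without them, and without them Card9-/- day 0 holds a single array whose spread is taken from the other groups.

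**Figure D1:**
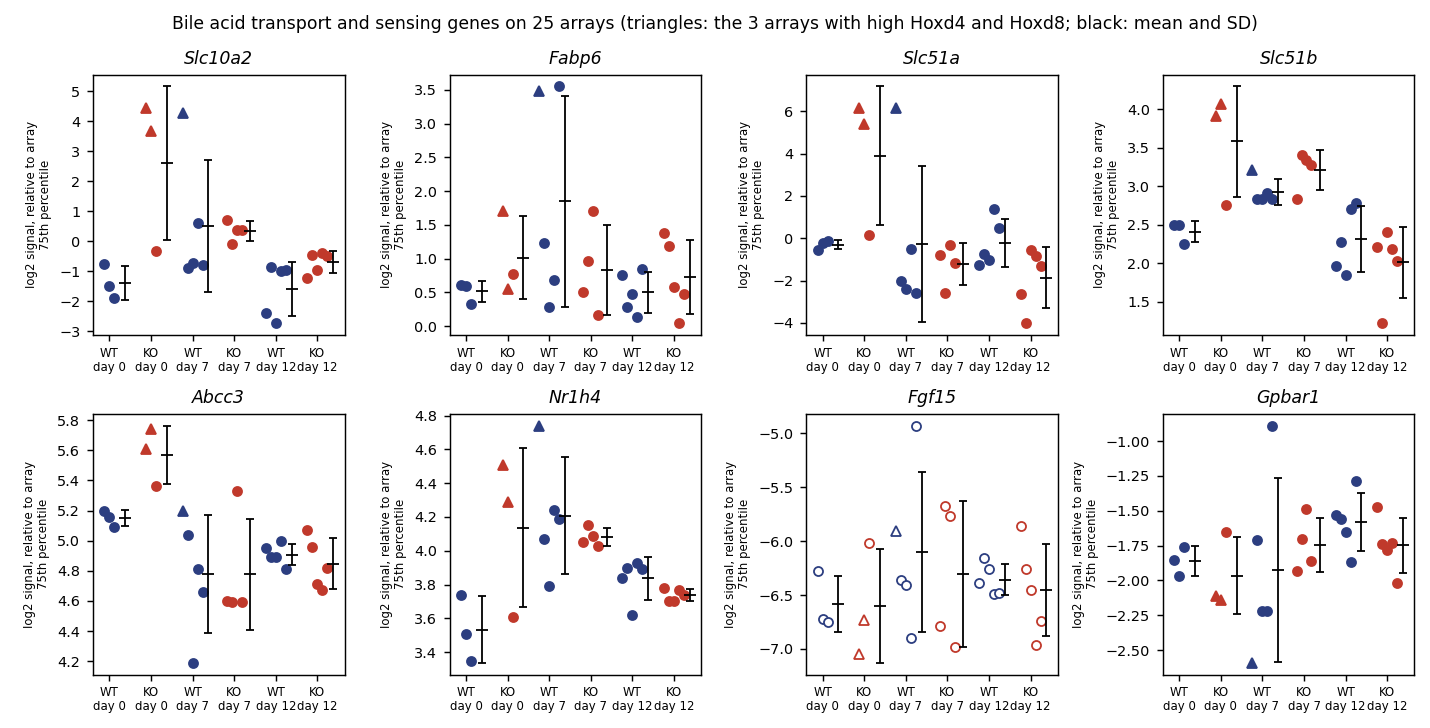
Log2 signal of the 8 genes on each of 25 arrays, minus that array's 75th percentile, by group (WT blue, labelled Card9-/- red). Triangles mark the 3 arrays with high Hoxd4 and Hoxd8, black marks give group means and standard deviations (SD), and open symbols (Fgf15) are values not well above background; Slc51a and Slc10a2 are far higher on the 3 triangles than on all other arrays.

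Slc10a2 brings bile acids into the cell with sodium, and its level divided the arrays into the same 3 and 22. It was -0.75, -1.50 and -1.87 in WT at day 0, and 4.46, 3.67 and -0.32 in the arrays labelled Card9-/- at day 0. At day 7 it was 4.28, -0.88, -0.73, 0.60 and -0.77 in WT and 0.71, -0.09, 0.39 and 0.37 in the arrays labelled Card9-/-. The 3 high values belong to the 3 arrays with high Hoxd4, and the lowest of them was 7.79-fold above the highest of the other 22. At day 12 it was -2.39, -0.86, -2.73, -0.98 and -0.96 in WT and -1.21, -0.44, -0.95, -0.37 and -0.48 in the arrays labelled Card9-/-, and the mean at day 12 was the lowest of each genotype.

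A second probe for the same gene, listed in the files under the older clone name 9130221J18Rik, followed the same course, with 3.95, 3.18 and 3.51 on the 3 arrays and -3.61 to -0.06 on the others. Slc10a2 was lower at day 12 than at day 0 in the arrays labelled Card9-/- by 3.29 on the log2 scale (-3.29 ± 0.98 SE, limma adjusted p = 0.0462), and these groups did not overlap. That call was lost without the 3 arrays (-0.37, adjusted p = 0.981) and with the position score as a covariate (-1.78, adjusted p = 0.393). The call held in 5 of 16 settings other than those that left out 1 array. It was lost in 20 of 25 fits that left out 1 array, with the adjusted p reaching 0.305 without Card9-/- day 0 replicate 1. With the slide as a block it was -2.89 (adjusted p = 0.12), and the within-slide differences were -2.05 and -4.92 on the 2 slides that held both groups.

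Within WT, Slc10a2 differed by 1.88 ± 0.98 (SE) from day 0 to day 7 and by -2.08 ± 0.85 from day 7 to day 12, and neither passed (adjusted p = 0.347 and 0.289). On the 22 arrays these were 0.93 and -1.14. In the arrays labelled Card9-/- the difference from day 0 to day 7 was -2.26 ± 1.03 (adjusted p = 0.138) and turned to 0.67 without the 3 arrays.

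Fabp6, the cytosolic bile acid binding protein of the ileum, did not follow the 3 arrays. It was 0.61, 0.60 and 0.33 in WT at day 0 and 1.71, 0.55 and 0.77 in the arrays labelled Card9-/-. In WT at day 7 it was 3.48, 1.23, 0.29, 0.68 and 3.55, so replicates 1 and 5 stood well above the other arrays of the group, and only replicate 1 is among the 3. The arrays labelled Card9-/- gave 0.51, 0.97, 1.70 and 0.16 at day 7. At day 12 the ranges were 0.13 to 0.85 in WT and 0.04 to 1.38 in the arrays labelled Card9-/-.

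The WT difference from day 0 to day 7 in Fabp6 was 1.33 ± 0.59 (adjusted p = 0.243), the one from day 7 to day 12 was -1.35 ± 0.51 (adjusted p = 0.252), and the one between genotypes at day 7 was -1.01 ± 0.54 (adjusted p = 0.365). None passed the test, and on the 22 arrays these were 0.93, -0.94 and -0.60. All groups compared overlapped. Within WT day 7 the SD was 1.56 (n = 5), against 0.16 (n = 3) at day 0.

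Slc51a, one subunit of the basolateral exporter, varied most of the 8 genes. It was -0.55, -0.23 and -0.13 in WT at day 0, and 6.15, 5.39 and 0.13 in the arrays labelled Card9-/-. At day 7 it was 6.16, -2.03, -2.41, -0.49 and -2.57 in WT and -0.80, -2.59, -0.30 and -1.15 in the arrays labelled Card9-/-. The 3 high values are again those of the 3 arrays, the lowest of them 15.9-fold above the highest of the other 22. At day 12 it was -1.24, -0.74, -1.05, 1.40 and 0.47 in WT and -2.61, -4.02, -0.55, -0.82 and -1.30 in the arrays labelled Card9-/-.

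The highest of the 22, 1.40, came from WT day 12 replicate 4, the array with the position score of 2.60. Across all 25 arrays the level spanned 10.18 on the log2 scale, or 1160-fold. A second Slc51a probe gave 4.20, 3.33 and 4.16 on the 3 arrays and -5.29 to -0.65 on the others, and was well above background on 20 of the 25.

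Slc51a was lower at day 7 than at day 0 in the arrays labelled Card9-/- by -5.10 ± 1.62 (adjusted p = 0.03) and lower at day 12 than at day 0 by -5.75 ± 1.55 (adjusted p = 0.028), with no overlap of groups in either. Both rest on the Card9-/- day 0 replicates 1 and 2. Without the 3 arrays the differences were -1.34 (adjusted p = 0.631) and -1.99 (adjusted p = 0.681), and with the position score as a covariate -3.65 (adjusted p = 0.0954) and -3.46 (adjusted p = 0.27). With the slide as a block both calls ended, at -4.26 (adjusted p = 0.102) and -4.99 (adjusted p = 0.0947). The within-slide differences from day 0 to day 7 were -3.56 and -7.30, and those from day 0 to day 12 were -3.58 and -8.81.

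Leaving out Card9-/- day 7 replicate 2 (-4.64, adjusted p = 0.0777) or replicate 4 (-5.12, adjusted p = 0.0542) also ended the day 7 call, and leaving out Card9-/- day 12 replicate 2 ended the day 12 call (-5.21, adjusted p = 0.0619). The single Card9-/- day 0 array outside the 3 gave 0.13, close to the WT day 0 values of -0.55 to -0.13.

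Slc51b, the other exporter subunit, needs Slc51a to reach the membrane, yet its level took a different course. It was 2.49, 2.49 and 2.25 in WT at day 0 and 3.91, 4.07 and 2.76 in the arrays labelled Card9-/-. At day 7 it was 3.21, 2.83, 2.83, 2.91 and 2.84 in WT and 2.83, 3.41, 3.34 and 3.27 in the arrays labelled Card9-/-. At day 12 it was 1.96, 2.28, 1.85, 2.71 and 2.78 in WT and 2.21, 1.22, 2.41, 2.18 and 2.03 in the arrays labelled Card9-/-. The 3 arrays lay between 3.21 and 4.07 and overlapped the range of 1.22 to 3.41 of the others. Card9-/- day 0 replicates 1 and 2 were above that range, and WT day 7 replicate 1 was within it but the highest of its group.

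Slc51b fell in the arrays labelled Card9-/- from day 7 to day 12 by -1.20 ± 0.26, or 2.3-fold (adjusted p = 0.00903), and every day 12 array was below every day 7 array. No array of this comparison is among the 3. Leaving them out thus cannot move the difference and changes only the estimate of spread. The difference was -1.20 (adjusted p = 0.00471) without them, -1.01 (adjusted p = 0.00691) with the position score as a covariate, and between -1.64 and -0.65 within the 4 slides. It stayed past the threshold in all 25 fits that left out 1 array, though leaving out an array of another group could not move the difference. Without the 4 arrays that carried pancreatic genes, which leaves 2 arrays at day 7, it was -1.08 (adjusted p = 0.118).

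At day 12 Slc51b was also lower than at day 0 in the arrays labelled Card9-/-, by -1.57 ± 0.28 (adjusted p = 0.00233). That difference was -1.06 (adjusted p = 0.0301) with the position score and -0.74 (adjusted p = 0.574) without the 3 arrays, and -1.23 and -2.28 within the slides that held both groups. In WT the differences were 0.51 ± 0.28 from day 0 to day 7 (adjusted p = 0.375) and -0.61 ± 0.24 from day 7 to day 12 (adjusted p = 0.281), neither past the threshold, although in both the groups did not overlap. In the arrays labelled Card9-/- the difference from day 0 to day 7 was -0.37 ± 0.29 (adjusted p = 0.459) with all arrays and 0.46 on the 22.

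The neutrophil list moved beside the day 7 to day 12 fall of Slc51b: its centred mean was 2.12 to 2.74 at day 7 and 0.24 to 1.66 at day 12 in the arrays labelled Card9-/-. The centred mean of 11 measured genes of absorptive colonocytes was -0.70 to 0.70 at day 7 and 0.09 to 0.53 at day 12. Their part in the result was not tested.

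Abcc3, an efflux pump of the basolateral membrane for conjugated organic anions that include bile acids, was 5.20, 5.16 and 5.09 in WT at day 0 and 5.61, 5.74 and 5.36 in the arrays labelled Card9-/-. At day 7 it was 5.20, 5.04, 4.19, 4.81 and 4.66 in WT and 4.60, 4.59, 5.33 and 4.59 in the arrays labelled Card9-/-. At day 12 it lay between 4.81 and 5.00 in WT and between 4.67 and 5.07 in the arrays labelled Card9-/-. The mean was highest at day 0 in each genotype, and among the day 7 arrays labelled Card9-/- replicate 3 stood above the other 3, which lay between 4.59 and 4.60.

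Abcc3 fell in the arrays labelled Card9-/- from day 0 to day 7 by -0.79 ± 0.20, or 1.73-fold (adjusted p = 0.00649), and was lower at day 12 than at day 0 by -0.72 ± 0.19 (adjusted p = 0.0228). Neither pair of groups overlapped. With the position score the first was -0.78 (adjusted p = 0.0151) and the second -0.70 (adjusted p = 0.103). Without the 3 arrays they were -0.58 (adjusted p = 0.265) and -0.51 (adjusted p = 0.619). The within-slide differences were -0.95 and -1.02 for day 7 and -0.88 and -0.72 for day 12. The day 12 call ended without Card9-/- day 0 replicate 1 (-0.70, adjusted p = 0.108) or replicate 2 (-0.64, adjusted p = 0.138), and without Card9-/- day 12 replicate 3 (-0.69, adjusted p = 0.054). In WT the difference from day 0 to day 7 was -0.37 ± 0.19 (adjusted p = 0.326). The neutrophil list rose over the same day 0 to day 7 interval, from at most -2.44 to at least 2.12 in the arrays labelled Card9-/-, and its part in the result was not tested.

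Nr1h4 is the nuclear receptor that senses bile acids. It was 3.74, 3.51 and 3.35 in WT at day 0 and 4.74, 4.07, 3.79, 4.24 and 4.19 in WT at day 7, with no overlap. At day 12 in WT it was 3.84, 3.90, 3.62, 3.93 and 3.89. In the arrays labelled Card9-/- it was 4.51, 4.29 and 3.61 at day 0, 4.05, 4.15, 4.09 and 4.03 at day 7 and 3.78, 3.70, 3.70, 3.77 and 3.74 at day 12. The spread was narrow at day 7 and day 12 in these arrays, with an SD of 0.06 (n = 4) and 0.04 (n = 5).

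Nr1h4 rose from day 0 to day 7 in WT by 0.67 ± 0.18, or 1.59-fold (adjusted p = 0.0329). The rise was 0.53 (adjusted p = 0.00909) without the 3 arrays and 0.70 (adjusted p = 0.0143) with the position score as a covariate, which does not set WT day 7 replicate 1 apart. It was not called with the anterior Hox mean (0.50, adjusted p = 0.0628) or the posterior Hox mean (0.69, adjusted p = 0.0563) as a covariate. With only the groups compared it was 0.67 (adjusted p = 0.284). The call held in 11 of 16 settings other than those that left out 1 array. Within the 3 slides that held both groups the rise was 0.42, 0.83 and 0.49. It missed the threshold without any of the 3 WT day 0 arrays in turn, with an adjusted p of 0.058, 0.123 and 0.156 for replicates 1, 2 and 3, and without WT day 7 replicate 4 (adjusted p = 0.0593). The neutrophil list was -2.99 to -2.66 in WT at day 0 and -0.74 to 2.35 in WT at day 7, and its part in the result was not tested.

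In the arrays labelled Card9-/- the Nr1h4 difference from day 0 to day 7 was -0.05 ± 0.18 (adjusted p = 0.898) with all arrays and 0.47 (adjusted p = 0.123) on the 22. From day 7 to day 12 it was -0.34 ± 0.16 (adjusted p = 0.212), with every day 12 array below every day 7 array. It passed without the 3 arrays (-0.34, adjusted p = 0.0464), but none of the 3 is in these groups, so only the estimate of spread changed. In WT that difference was -0.37 ± 0.15 (adjusted p = 0.297), and -0.23 on the 22 arrays.

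Fgf15, the hormone gene that ileal Nr1h4 induces, gave -7.05 to -4.93, while the dimmest probes still well above background stood at -6.46 to -4.32 on the 25 arrays. No level or fold can be given for it. Without the filter on dim probes none of the 11 comparisons called it.

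Gpbar1, the membrane receptor for bile acids, ranged from -2.59 to -0.89. Both ends came from WT day 7, where the 5 arrays gave -2.59, -1.71, -2.22, -2.22 and -0.89. The WT means were -1.86 ± 0.11 (SD, n = 3) before DSS, -1.92 ± 0.66 (SD, n = 5) at day 7 and -1.58 ± 0.21 (SD, n = 5) at day 12. Those of the arrays labelled Card9-/- were -1.97 ± 0.27 (SD, n = 3), -1.75 ± 0.19 (SD, n = 4) and -1.75 ± 0.19 (SD, n = 5). Gpbar1 passed in no comparison, and the genotype difference at day 7 was 0.18 ± 0.23 (adjusted p = 0.772), and 0.01 on the 22 arrays.

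Counted over comparisons, 1 of the 7 tested members was called from day 0 to day 7 in WT (Nr1h4), where 4.35% of all genes were called, and 2 of 7 in the arrays labelled Card9-/- (Slc51a, Abcc3), where 19.7% were. From day 7 to day 12 it was 0 of 7 in WT (background 0.487%) and 1 of 7 in the arrays labelled Card9-/- (Slc51b, background 7.7%). From day 0 to day 12 it was 0 of 7 in WT (background 1.73%) and 4 of 7 in the arrays labelled Card9-/- (Slc10a2, Slc51a, Slc51b, Abcc3, background 6.96%). In limma without adjustment, 4 of 7 had a p under 0.05 in the WT comparison from day 7 to day 12 (13.1% of all genes), and 0 in that from day 0 to day 12 (13.3%). The median difference of the members was -0.72 from day 0 to day 12 in the arrays labelled Card9-/-, against -0.03 over all genes, and -0.37 against -0.09 without the 3 arrays.

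With the position score as a covariate 1 of 7 was called in each of those 4 comparisons with calls. Over all genes the shares were then 4.67% for WT day 7 against day 0, 17.4% for the same days in the arrays labelled Card9-/-, 7.3% for day 12 against day 7 and 2.19% for day 12 against day 0 in those arrays. Without the 3 arrays the counts were 1, 0, 2 and 0 of 7 in the same order, beside 5.86%, 4.3%, 7.44% and 0.562% of all genes. The median member difference from day 0 to day 7 in the arrays labelled Card9-/- went from -0.37 with all arrays to 0.06 without the 3.

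**Figure D2:**
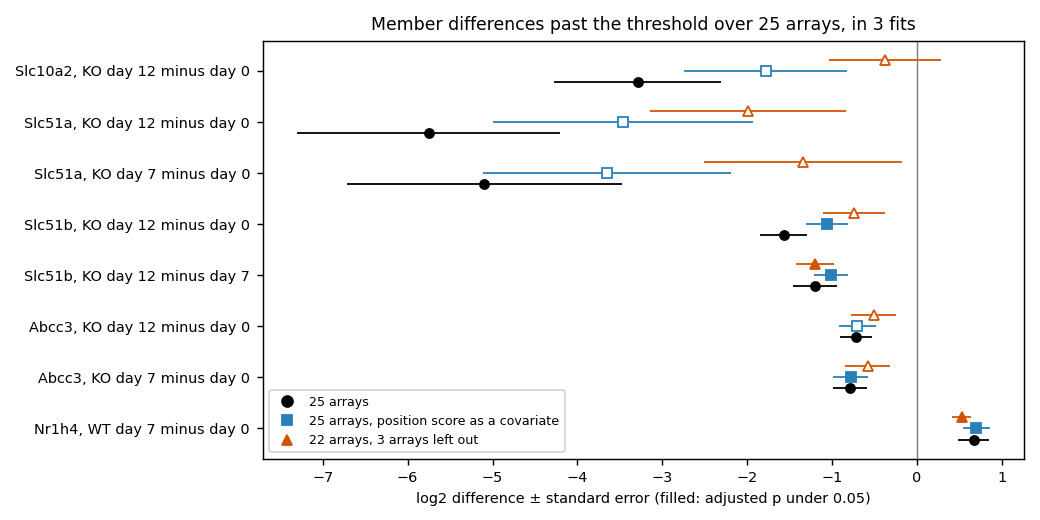
The 8 member differences past the threshold over 25 arrays (log2 difference with its SE, filled where the adjusted p is under 0.05) in 3 fits: all arrays, all arrays with the position score as a covariate, and the 22 arrays left without the 3 with high Hoxd4 and Hoxd8. The 2 Slc51a differences shrank from -5.10 and -5.75 to -1.34 and -1.99 on 22 arrays. Slc51b at day 12 against day 7 was -1.20 with and without the 3 arrays, none of which is in that comparison.

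Between genotypes no member was called on any day. At day 0, where 0.00393% of all genes were called, Slc10a2 was 3.98 ± 1.10 higher in the arrays labelled Card9-/- (adjusted p = 0.637), Slc51a 4.19 ± 1.73 (adjusted p = 0.912), Slc51b 1.17 ± 0.31 (adjusted p = 0.634), Nr1h4 0.60 ± 0.20 (adjusted p = 0.675) and Abcc3 0.42 ± 0.21 (adjusted p = 1). An unadjusted p under 0.05 was found for 4 of the 7 and for 4.97% of all genes. Without the 3 arrays the differences were 1.05, 0.43, 0.35, 0.07 and 0.21 in the same order, with a single Card9-/- array left at day 0. Weights that count variable arrays less called 5 of 7 members at day 0, and 8.34% of all genes. The weighted differences were 4.88, 5.32, 1.47, 0.74 and 0.51 in the same order, each larger than without weights. They thus moved away from the values without the 3 arrays. Leaving out Card9-/- day 0 replicate 3, which is not among the 3, also gave larger differences for Slc10a2 (5.44) and Slc51b (1.58).

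At day 7 and at day 12, 0 of 7 members were called between genotypes and 0 had an unadjusted p under 0.05, beside 0.55% and 0.0707% of all genes called and 16.5% and 8.85% with an unadjusted p under 0.05. The change from day 0 to day 7 differed between genotypes by -4.14 ± 1.42 for Slc10a2 (adjusted p = 0.272) and by -5.14 ± 2.24 for Slc51a (adjusted p = 0.376), with 0 of 7 called and 0.00393% of all genes called. An unadjusted p under 0.05 was found there for 4 of 7 members and for 11.6% of all genes. On the 22 arrays the difference was -0.27 for Slc10a2 and 0.23 for Slc51a. The change from day 7 to day 12 gave 0 of 7 calls as well, with 0.00785% of all genes called, and 0 of 7 with an unadjusted p under 0.05, against 7.71% of all genes.

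Array by array, Slc51a, Slc10a2 and Nr1h4 were the 3 members higher on each of the 3 arrays than on any of the other 22. For Nr1h4 the margin was 0.05 on the log2 scale. Over all genes 1.83% were placed this way. The relation of each member to Hox position was computed over 22 arrays, with 28 relations in all (7 members, 2 measures, values and deviations from group means). For the mean of Hoxd4 and Hoxd8 the 3 arrays were left out, since they form a cluster of their own. For the position score the arrays at 2.60 or more were left out: Card9-/- day 0 replicates 1 and 2 and WT day 12 replicate 4. WT day 7 replicate 1, with a score of -0.38, stayed in that set. Over 22 arrays the largest Pearson r of the uncentred values was that of Slc10a2 with the mean of Hoxd4 and Hoxd8, with a Pearson r of 0.52 (permutation p = 0.0131, adjusted 0.124) and a Spearman rho of 0.52 (permutation p = 0.0143, adjusted 0.0861). For deviations from group means it was r = 0.53 (permutation p = 0.0109, adjusted 0.124) and rho = 0.54 (permutation p = 0.00959, adjusted 0.0861). Leaving out the 2 arrays farthest from the median gave r = 0.62 and 0.46.

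Slc51b gave r = 0.50 with the position score (permutation p = 0.0188, adjusted 0.124; rho = 0.44, permutation p = 0.043, adjusted 0.0876) and 0.52 without the 2 farthest arrays. Slc51a gave r = 0.20 with the score over 22 arrays (permutation p = 0.412, adjusted 0.453; rho = 0.28, permutation p = 0.2, adjusted 0.225), and 0.16 without the 2 farthest arrays. The arrays used with the score include WT day 7 replicate 1, where Slc51a was 6.16. No relation passed after adjustment, by either coefficient.

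**Figure D3:**
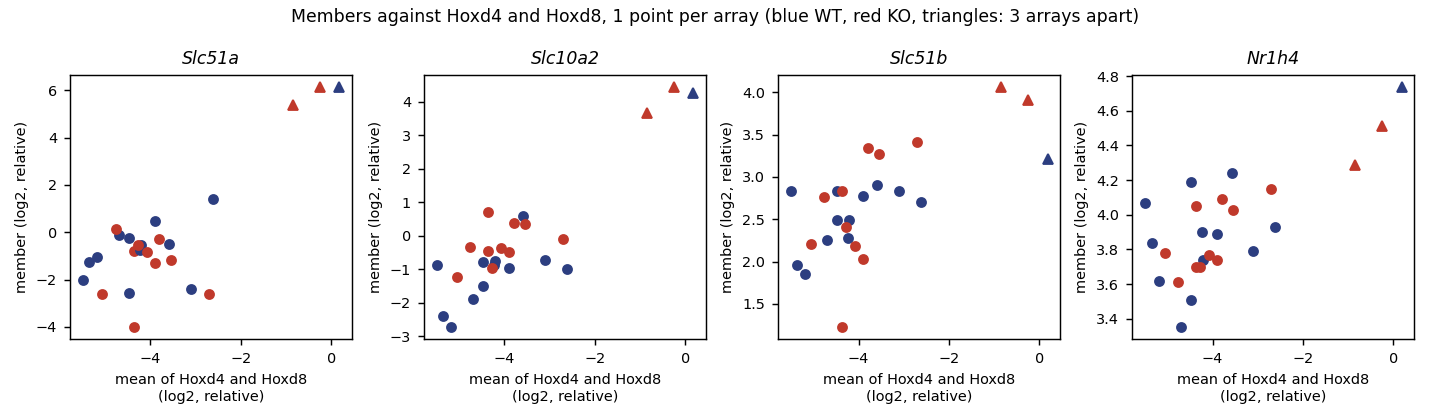
Level of Slc51a, Slc10a2, Slc51b and Nr1h4 (log2, minus the 75th percentile of its array) against the mean of Hoxd4 and Hoxd8 on the same scale, 1 point per array (WT blue, labelled Card9-/- red). The 3 triangles stand at -0.84 to 0.18 on the horizontal axis, apart from the 22 others, where Slc51a had an r of 0.17 and Slc10a2 of 0.52.

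The genes whose level went most like that of each member were named by Pearson r over 25 arrays (24 for 2210417A02Rik), as a description. For Slc51a they were Aldh1a1 (r = 0.952), a retinaldehyde dehydrogenase, the hexokinase-like Hkdc1 (0.951) and Hoxb6 (0.943). Without the 3 arrays the same 3 genes gave 0.874, 0.79 and 0.704. For Slc10a2 they were Hoxd4 (0.885), Sis (0.867) and Osr2 (0.862), which fell to 0.499, 0.481 and 0.234 without the 3 arrays.

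For Slc51b the nearest were Pex11a (0.828), Unc93a (0.825) and Fzd3 (0.804), and for Nr1h4 they were Vnn1 (0.849), Akr1c18 (0.808) and Ralgapa2 (0.799). Without the 3 arrays these gave 0.744, 0.731 and 0.69 for Slc51b and 0.646, 0.667 and 0.744 for Nr1h4. Abcc3 went with Entpd5 (0.932), ketohexokinase Khk (0.924) and Ush1c (0.916), with 0.895 to 0.917 without the 3 arrays. Fabp6 went with Gm4755 (0.862), Rmi2 (0.842) and Zfp423 (0.824), and Gpbar1 with 2210417A02Rik (0.878), Chad (0.846) and Prpmp5 (0.845).

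On the 22 arrays, the exporter subunits Slc51a and Slc51b had an r of 0.26, and the uptake transporter Slc10a2 and Slc51a of -0.05. Slc51b had 0.62 with Nr1h4 and 0.56 with Slc10a2, and Slc10a2 0.60 with Nr1h4. The highest of the 21 pairs was Fabp6 with Gpbar1, at 0.72. WT day 7 replicate 5, a dim array with a 75th percentile of 215, held the highest level of both among the 22 (3.55 and -0.89). The 22 arrays share groups and scaling, so the values are descriptions.

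The promoters of the uptake transporter and both exporter subunits are printed because 2 of these genes stood above all other arrays on the same 3 arrays. Slc51b was also high there, at 3.21 to 4.07, but overlapped the range of 1.22 to 3.41 of the others. Each run is the 250 bases upstream of the transcript start, 5′ to 3′ on the gene's strand (minus for all 3), from RefSeq on GRCm38.p6. Capitals mark AGGTCA, the hexamer that nuclear receptors such as FXR bind, or GTTAAT, part of the site of the liver and gut factor HNF1, each on either strand. The positions are chr16:32487880-32488129 for Slc51a, chr9:65422774-65423023 for Slc51b and chr8:5105288-5105537 for Slc10a2.
Slc51a: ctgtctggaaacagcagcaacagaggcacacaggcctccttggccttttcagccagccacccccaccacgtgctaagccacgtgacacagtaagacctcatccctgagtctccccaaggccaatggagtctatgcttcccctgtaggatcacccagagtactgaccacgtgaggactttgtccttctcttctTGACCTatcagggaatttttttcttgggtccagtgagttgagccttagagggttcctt
Slc51b: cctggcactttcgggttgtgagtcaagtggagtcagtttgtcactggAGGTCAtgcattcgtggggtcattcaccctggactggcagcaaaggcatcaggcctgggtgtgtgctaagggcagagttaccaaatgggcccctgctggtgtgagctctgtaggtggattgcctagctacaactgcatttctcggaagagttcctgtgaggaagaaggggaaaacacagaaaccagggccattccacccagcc
Slc10a2: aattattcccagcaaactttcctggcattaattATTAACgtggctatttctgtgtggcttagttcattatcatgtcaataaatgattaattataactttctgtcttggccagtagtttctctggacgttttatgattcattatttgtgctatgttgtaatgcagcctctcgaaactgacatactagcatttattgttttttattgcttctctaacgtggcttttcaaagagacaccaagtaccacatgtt

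The Slc51a promoter holds AGGTCA on the minus strand at bases 58 to 53 upstream of the start, and the Slc51b promoter on the plus strand at bases 203 to 198. Slc10a2 holds GTTAAT on the minus strand at bases 217 to 212 and no AGGTCA. Promoters of 6 members were matched by symbol. AGGTCA was found in 3 of the 6 and in 14% of 32851 promoters of the same length, and GTTAAT in 2 of the 6 (Slc10a2, Nr1h4) and in 6.43%. The motifs do not overlap. The inverted repeat of AGGTCA with 1 base between, the form FXR binds best, was in none of the 6 and in 2 of all 32851. Such a match describes letters in this window only.

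Other genes of bile acid biology were taken from a list of 46, of which 40 could be tested. Cyp7a1, Cyp8b1, Akr1d1 and Baat, the liver's synthesis and conjugation enzymes, and Abcg8 did not pass the filter, and Ugt1a1 had no probe of that name. From day 0 to day 7 in the arrays labelled Card9-/-, 17 of 40 fell and 4 rose (21 of 40, beside the 19.7% of all genes), with a median difference of -0.29 against -0.08 over all genes. In WT over the same days 3 fell and 2 rose (background 4.35%). From day 0 to day 12 in the arrays labelled Card9-/- 8 fell and 4 rose (background 6.96%), and in WT 2 fell and 1 rose (background 1.73%). Without the 3 arrays the day 7 counts in the arrays labelled Card9-/- were 3 fallen and 2 risen (background 4.3%), and those of day 12 were 0 and 0 (background 0.562%).

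Among the enzymes, Hsd3b7, which works early in bile acid synthesis, fell in each genotype at day 7, by -0.61 ± 0.13 in WT (adjusted p = 0.0102) and, in the arrays labelled Card9-/-, by -1.19 ± 0.14 (adjusted p = 1.21e-05). On the 22 arrays these were -0.66 (adjusted p = 0.00527) and -0.94 (adjusted p = 0.0107). In WT Hsd3b7 was also lower at day 12 than at day 0, by -0.54 ± 0.13 (adjusted p = 0.0336). That call held in 12 of 16 other settings and in 18 of 25 fits that left out 1 array. In the other genotype Hsd3b7 was lower by -0.97 ± 0.13 (adjusted p = 0.000176). On the 22 arrays the latter was -0.71 (adjusted p = 0.113).

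Cyp7b1, the oxysterol hydroxylase of the alternative pathway, rose in the arrays labelled Card9-/- between day 0 and day 7 by 3.71 ± 0.63 (adjusted p = 0.000362), with 4.05 (adjusted p = 0.0268) on the 22 arrays. In WT it differed by 2.12 ± 0.60 (adjusted p = 0.0479), a call that held in 4 of 16 other settings and 4 of 25 fits that left out 1 array. It was 1.28 (adjusted p = 0.362) without WT day 0 replicate 1, 1.04 (adjusted p = 0.177) in the series value table and 2.18 (adjusted p = 0.0664) on the 22 arrays. The Cyp7b1 probe was well above background on 2 of 3 day 0 arrays in each genotype, so both differences start from dim signal. Cyp27a1, the mitochondrial sterol hydroxylase, rose by 1.72 ± 0.41 in WT at day 7 (adjusted p = 0.0189). That call ended with normexp background correction (0.78, adjusted p = 0.0831), with quantile normalization (1.38, adjusted p = 0.197), in the series value table (0.75, adjusted p = 0.125) and without any of the WT day 0 arrays in turn (adjusted p = 0.0539, 0.0702 and 0.0932 for replicates 1, 2 and 3). The racemase Amacr was the only list gene called between genotypes, at day 7 (-0.45 ± 0.10, adjusted p = 0.0416), and this was lost on the 22 arrays (-0.41, adjusted p = 0.115), in 9 of 16 other settings in all and in 18 of 25 fits that left out 1 array.

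Among receptors, Ppara, the fatty acid sensor, fell in the arrays labelled Card9-/- from day 0 to day 7 by -2.28 ± 0.40 (adjusted p = 0.000501) and by -1.74 on the 22 arrays (adjusted p = 0.00885). Fpr1, the formyl peptide receptor of neutrophils, which some bile acids block, was well above background on 0 of 3 Card9-/- day 0 arrays and was at least 25.8-fold higher at day 7 (adjusted p = 0.000105). Chrm3, the muscarinic receptor for acetylcholine that also binds conjugated bile acids, was lower after DSS. In WT it was at least 11.8-fold lower at day 7 (adjusted p = 0.000109) and at least 12.1-fold lower at day 12 (adjusted p = 0.000158). These bounds are also those of the main processing. Over 15 other settings the fitted log2 differences ranged from -4.11 to -1.42 at day 7 and from -3.79 to -1.52 at day 12. In the arrays labelled Card9-/- it was at least 6.19-fold lower at day 12 (adjusted p = 0.0011), a call lost on the 22 arrays (adjusted p = 0.113). Neutrophil genes rose over the same days, as given above, and their part in the Fpr1 result was not tested.

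Among transporters and their regulators, Slco4a1, an organic anion carrier, was lower in the arrays labelled Card9-/- by -1.26 ± 0.25 at day 7 than before DSS (adjusted p = 0.00146) and rose again by 0.75 ± 0.22 from day 7 to day 12 (adjusted p = 0.0424). Hnf4a, a master regulator of enterocyte genes, was lower by -0.54 ± 0.12 at day 7 (adjusted p = 0.00358) and rose by 0.45 ± 0.11 to day 12 (adjusted p = 0.015). On the 22 arrays the differences at day 7 were -0.88 for Slco4a1 and -0.54 for Hnf4a, the latter unchanged. Neither was called there, where a single Card9-/- day 0 array is left. The rises to day 12, a comparison without any of the 3 arrays, ended without the 4 arrays with pancreatic genes (0.76, adjusted p = 0.196 for Slco4a1 and 0.48, adjusted p = 0.111 for Hnf4a), and that of Slco4a1 was called in 12 of 25 fits that left out 1 array. Abcg2, an apical efflux pump, rose by 0.72 ± 0.16 from day 7 to day 12 in WT (adjusted p = 0.0393), the single call of the list in that comparison. It was called in 9 of 16 other settings, not with the slide as a block (adjusted p = 0.0535), and in 12 of 25 fits that left out 1 array.

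**Figure D4:**
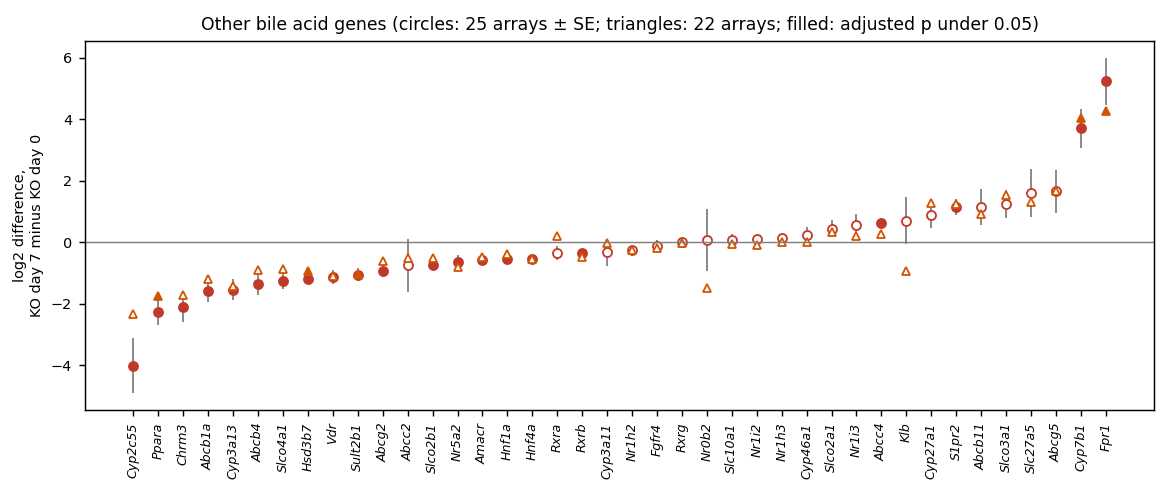
Log2 difference from day 0 to day 7 in the arrays labelled Card9-/- for 40 other genes of bile acid biology, over 25 arrays (circles with SE) and over the 22 arrays (triangles), filled where the adjusted p is under 0.05. Over 25 arrays 17 fell and 4 rose, and over 22 arrays 3 fell and 2 rose; the fitted value of Fpr1 is no bound, since its probe was not well above background at day 0.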

How the data were processed

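Each array file holds spot intensity on a linear scale, background-subtracted and detrended by Agilent Feature Extraction 10.7.3.1 and not normalized between arrays, per the file headers. The series value table the authors deposited is on a log2 scale by its values, and served as an alternative, its normalization not given in the sources used here. Every array has 59305 non-control spots for 55681 probes. Log2 of the processed intensity minus the array's 75th percentile was used, without control or outlier-flagged spots. A probe had to be well above background on at least 3 arrays (36283 probes), and a gene was represented by its brightest probe. Probes were named by accession (27656), by symbol or synonym (3722), or kept the file's name (24303).

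Groups were fitted in 1 model of 6 groups with limma 3.58.1 in R 4.3.3 (lmFit, eBayes). A gene was called at a Benjamini-Hochberg adjusted p under 0.05 within each of 11 comparisons across all genes. On simulated data for the Card9-/- comparison of day 7 with day 0 (25206 genes), 43% of changes of 1 and 71% of changes of 2 on the log2 scale were recovered, with 3.39% false calls. The simulation changed 200 genes and drew noise independently for each gene and array. It held no shift shared by many genes, such as those of the 3 arrays or of pancreatic RNA. Its shares therefore cannot be taken as those of the real comparison. Permutation tests drew 100000 resamples and were 2-sided. "At least N-fold" sets the bright group's mean against, per array of the dim group, the higher of the probe's signal and the lowest signal well above background. The number of arrays limits the precision.

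Members, gene lists and tests were chosen with earlier results of these data known. Named genes were all members, list genes called in a comparison with the smallest p first, the 3 most alike genes per member, and Hox genes of the position lists; other marker genes were named after their values were seen. The alternatives changed the background correction (normexp, offset 50), the normalization (quantile), the filter (none, or 13 arrays), the choice of probe, the blocks (slide or replicate number), the groups fitted, Hox covariates, array weights and the arrays left out. No arrays held identical values.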

Additional observations from a re-analysis of the deposited data

Results flagged for a closer look

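Within groups of 4 or 5 arrays, 5 of 32 sets of values (7 members and the position score) held an array whose gap to its neighbour was large for the group's range. Chance gives about 1 in 20. Slc51a in WT day 7 replicate 1 was 6.16, with the next array at -0.49. Slc10a2 in the same array was 4.28, with the next at 0.60, and Slc51b was 3.21, with the next at 2.91. That array is one of the 3 with high Hoxd4 and Hoxd8. Abcc3 in Card9-/- day 7 replicate 3 was 5.33, with the next at 4.60, and Nr1h4 in WT day 12 replicate 3 was 3.62, with the next at 3.84.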

How the results depend on the processing

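For 58 differences, 41 alternatives were run, 2 of them chosen after seeing the data. The count of members called became 0 for WT day 7 against day 0 with no filter on dim probes, with only the groups compared, with the anterior or the posterior Hox mean as a covariate, and without the 4 arrays with pancreatic RNA. In the arrays labelled Card9-/- the count from day 0 to day 7 became 1 with the slide as a block, the position score, the posterior Hox mean or without those 4 arrays, and 0 with only the groups compared or without the 3 arrays with high Hoxd4 and Hoxd8. From day 7 to day 12 it became 0 without the 4 arrays and 2 without the 3. From day 0 to day 12 it became 2 with the slide as a block, the posterior Hox mean or without the 4 arrays, 1 with only the groups compared, the position score, the anterior Hox mean or the mean of Hoxd4 and Hoxd8, and 0 without the 3 arrays. Array weights gave 5 between genotypes at day 0, beside 8.34% of all genes, and 3 in the change from day 0 to day 7, beside 5.38%. They also called Slc10a2 from day 0 to day 7 in the arrays labelled Card9-/- (-3.16, adjusted p = 0.00672), where 28.4% of all genes were called. Leaving out 1 array gave 0 to 1, 1 to 3, 1 to 1 and 1 to 5 for these 4 comparisons over time, 0 to 2 between genotypes at day 0 and 0 to 0 elsewhere.

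Without the 3 arrays 17 of all 77 member differences turned, 0 of them called over 25 arrays. They included Slc51a in the genotype difference of the day 7 change (0.23), and from day 0 to day 7 in the arrays labelled Card9-/- Slc10a2 (0.67), Slc51b (0.46) and Nr1h4 (0.47). That Nr1h4 difference also turned with quantile normalization (0.07), the series value table (0.08), the position score (0.09), the anterior Hox mean (0.06) and the mean of Hoxd4 and Hoxd8 (0.16), and ranged from -0.32 to 0.13 when 1 array was left out. The cause was not tested. The replicate block ended 1 member call, Abcc3 from day 0 to day 12 in the Card9-/- arrays (-0.68, adjusted p = 0.0557), and those of Cyp7b1 (WT, day 7), Amacr, Slco4a1 (day 12 against day 7), Abcg2 and Abcb11 among the other genes of bile acid biology. Same-numbered arrays did not deviate together: 15 of 54 such pairs correlated over 0.1 (-0.445 to 0.682), and 3 of 25 arrays correlated best with their own number, so the numbers were not taken as pairs. Signal over background limits, among others, Fgf15, Slc51a's second probe on 5 arrays, Cyp7b1 at day 0, Sis and several Hox genes of the position score.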
